A study of Mus musculus with 27 samples.

Results

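The mitosis genes described here are 44 genes whose products condense chromosomes, build the spindle, attach chromosomes to it, separate the sister chromatids and split the cell. They were taken from a list of symbols chosen with earlier results of these data known, so counts over them are a description. All 44 were found among the 35275 genes measured in 27 RNA-seq libraries. The libraries came from CD8 T cells of lymph nodes of mice with the transgenic P14 T cell receptor, with 3 libraries in each of 9 groups (3 genotypes at 3 stages). The genotypes were WT P14+, Lin28bTg P14+ (lin28Tg), whose Lin28b protein blocks the maturation of let-7 microRNAs (the promoter of the transgene is not given in the sources used here), and Let-7Tg P14+ (let-7Tg), which carries a doxycycline-induced let-7g transgene inserted at the Col1a1 locus. lin28Tg and let-7Tg animals were on a Rag2-/- background, so that they lack other rearranged lymphocyte receptors. The methods place WT P14+ mice on that background for another cross and do not say so for the WT mice of these libraries. Mice of both sexes aged 6 to 10 weeks were used. By the study's methods control animals also drank doxycycline (2 mg/ml, with 10 mg/ml sucrose) before the experiment unless stated otherwise. Naive cells were not stimulated. The 12 h cells were stimulated with anti-CD3 (2 μg/ml) and anti-CD28 (5 μg/ml), and the day 5 CTLs grew on irradiated splenocytes with anti-CD3 (2 μg/ml) and received IL-2 (100 U/ml) at 48 h. The labels add doxycycline at 2 μg/ml to all 12 h and day 5 cultures.

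Most mitosis genes are silent in resting lymphocytes, are switched on as a cell passes through S phase into G2, and have their messages and proteins removed as the cell returns to G1. Cyclin-dependent kinase 1 with cyclin A or B drives entry into mitosis, Polo and Aurora kinases build the spindle, the spindle assembly checkpoint delays separation until every chromosome is attached, and the anaphase-promoting complex then destroys securin and the cyclins. Naive CD8 T cells rest in G0 and begin to divide about a day after antigen recognition, so the level of these transcripts in bulk RNA follows the share of cells in S phase to mitosis as well as the RNA per cell. Fewer cells in that phase and less RNA per cell cannot be told apart in bulk samples.

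Promoters of mitosis genes are known for paired CCAAT boxes, bound by NF-Y, and for the CHR element TTTGAA, through which the DREAM and MuvB complexes repress them in resting cells and B-Myb and FoxM1 activate them in G2. RefSeq promoter sequence on GRCm38.p6 (300 bases around the annotated start) was at hand for 35 of the 44 members. CCAAT on either strand occurred in 25 of the 35 (71.4%), against 41.1% of 27025 genes with a promoter, and TTTGAA on either strand in 25 (71.4%) against 20.2%. The CCAAT box and TTTGAA stood together in 22 members (62.9%) and in 7.97% of all promoters. The E2F-type words were rarer, with TTGGCGC in 6 members (17.1% against 2.85% of all genes), TTCCCGC in 1 (2.86% against 5.29%) and TTCGCGC in 1 (2.86% against 1.81%). ATTGG, the reverse complement of CCAAT, shares TTGG with TTGGCGC, so that these words can overlap, and a match is a description of the letters, not a bound site. The promoters of Top2a (chr11:99024140-99024439, minus strand), Ccnb2 (chr9:70421505-70421804, minus strand) and Plk1 (chr7:122159185-122159484, plus strand) are shown 5′ to 3′ because these 3 members hold both words and their levels are described below, with CCAAT and TTTGAA or their reverse complements in capitals.
Top2a: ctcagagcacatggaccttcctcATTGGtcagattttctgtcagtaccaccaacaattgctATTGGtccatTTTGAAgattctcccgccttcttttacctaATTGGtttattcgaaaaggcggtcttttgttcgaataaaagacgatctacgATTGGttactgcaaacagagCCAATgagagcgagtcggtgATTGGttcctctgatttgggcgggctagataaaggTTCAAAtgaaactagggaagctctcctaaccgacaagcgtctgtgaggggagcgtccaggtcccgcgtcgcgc
Ccnb2: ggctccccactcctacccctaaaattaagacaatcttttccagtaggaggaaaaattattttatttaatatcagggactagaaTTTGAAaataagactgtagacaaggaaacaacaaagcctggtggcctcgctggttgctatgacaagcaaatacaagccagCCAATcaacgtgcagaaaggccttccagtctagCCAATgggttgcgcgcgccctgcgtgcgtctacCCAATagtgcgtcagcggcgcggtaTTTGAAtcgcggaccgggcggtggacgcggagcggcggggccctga
Plk1: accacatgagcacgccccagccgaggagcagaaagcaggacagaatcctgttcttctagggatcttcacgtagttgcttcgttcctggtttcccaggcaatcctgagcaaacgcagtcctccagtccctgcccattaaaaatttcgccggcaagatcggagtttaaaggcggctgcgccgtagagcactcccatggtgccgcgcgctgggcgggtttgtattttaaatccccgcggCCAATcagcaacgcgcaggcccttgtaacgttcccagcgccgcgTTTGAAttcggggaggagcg
Top2a held 6 CCAAT boxes, the closest to the start at base -58, and 2 TTTGAA words. Ccnb2 held 3 CCAAT boxes at -87, -54 and -21 with a TTTGAA at 5, and Plk1 held 1 of each, at -14 and 31. Neither word stood in the windows of Pttg1, Birc5, Mad2l1, Mybl2, Ncaph, Nuf2 and Nusap1. Of these, Pttg1 was lower and the others were higher in naive lin28Tg than in WT cells. No promoter of Smc4 was at hand.

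The let-7Tg transgene encodes let-7g, whose mature 5p strand is shown because it is the molecule that differs by design between the genotypes. Its seed (bases 2 to 8) stands in capitals, and the 5p arms of let-7a to let-7i share it.
let-7g-5p: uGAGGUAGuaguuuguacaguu
A match to that seed, CTACCTC, occurred in the annotated 3′ UTR of 4 of the 44 members (9.09%), against 1629 of 21187 genes (7.69%). The median 3′ UTR of the members was 541.5 bases long and that of all genes 746 bases. The 4 matches are given in 30 bases each (GENCODE M21, GRCm38) with the match in capitals, and a match is not a tested target site.
Birc5: tttgctttaaagtggCTACCTCtctttggt
Espl1: gtagaagctgtgtgaCTACCTCcaaacttg
Kif11: gccaaggctgtttccCTACCTCtaaccagc
Nusap1: ctgatcccccagcctCTACCTCccaggtga
The matches lie at chr11:117855470-117855476, chr15:102324247-102324253, chr19:37420745-37420751 and chr2:119649958-119649964, all on the plus strand. The other 40 members had no such match in the annotated UTR of the transcript used. The transcript of Incenp had 0 UTR bases and could hold none, and those of Pttg1 and Cdc20 had 55 and 62.

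The genotype labels were checked on the transgenes. Lin28b stood at 56.4 to 67.9 FPKM in naive, 9.94 to 12.6 in 12 h and 14 to 22.4 in day 5 lin28Tg libraries and at 0.0590 or less elsewhere. Col1a1, the insertion site of the let-7g transgene, stood at 10.1 to 26.6, 21.5 to 62.8 and 9.06 to 17.8 FPKM in let-7Tg libraries of the 3 stages, at 1.07 to 1.43 in naive WT and at 1.93 to 4.93 in naive lin28Tg libraries. FPKM are fragments divided by the length of the gene in kilobases and by the fragments of the library. The gene lengths recovered from these values equal the annotated exon length in 6831 of 25144 genes. Top2a has 1696 bases against 9013 annotated, and Mki67 10075 against 10061. Ranks of level between genes therefore depend on the lengths used. The libraries held 13862706 to 23591069 counted reads. Whether the counting used strand is not given in the sources used here, so that reads of members whose exons overlap a gene on the other strand (among genes of the tables, Ccna2 with Exosc9, Cdc25c with Gm3550, Ube2c with Tnnc2, Kif4 with Pdzd11, Prc1 with Rccd1, Ncapg with Lcorl, Kif20a with Cdc23, Nusap1 with Oip5 and Cdc20 with Elovl1) may include reads of the neighbour. All differences below are log2 differences of scaled FPKM plus 0.5 with the SE of the fit, which understate the change of low genes, and a member is called where the limma test gave an adjusted p under 0.05 over all genes tested.

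The course of the members as a whole is given by their median level in each library. In naive WT cells the median member stood at 1.18, 1.21 and 1.38 FPKM (lowest, middle and highest library), in naive let-7Tg cells at 0.731, 0.907 and 1.18, and in naive lin28Tg cells at 9.44, 13.1 and 16.4. After 12 h it was 1.99, 2.02 and 2.58 in WT, 0.968, 0.975 and 1.14 in let-7Tg and 8.69, 11.6 and 12.4 in lin28Tg cells. On day 5 it had reached 82.4, 93.3 and 109 in WT, 80.2, 81.2 and 103 in lin28Tg and 95.5, 118 and 122 in let-7Tg CTLs. The lin28Tg libraries thus lay above every other library of their stage in naive and 12 h cells, and the 3 genotypes overlapped on day 5. Members took 0.0645 to 0.0704% of the reads of naive WT, 0.147 to 0.230% of naive lin28Tg and 1.01 to 1.23% of day 5 WT libraries.

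**Figure D1:**
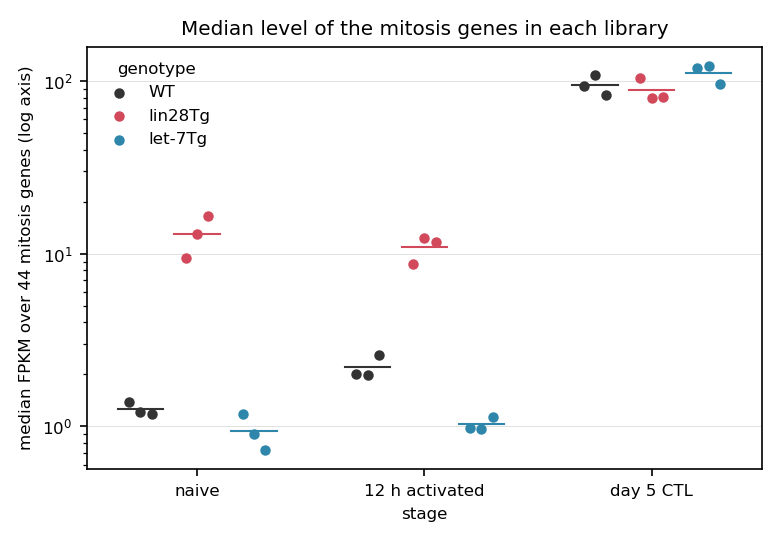
Median FPKM of the 44 mitosis genes in each of the 27 libraries (points, log axis) by genotype and stage, with 3 libraries per group. The naive and 12 h lin28Tg libraries sit at 8.69 to 16.4 FPKM, above the WT and let-7Tg libraries of these stages (0.731 to 2.58), and all day 5 libraries sit between 80.2 and 122.

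In naive cells, 42 of the 44 mitosis genes were higher and 2 lower in lin28Tg than in WT. Over all 13261 genes tested at that stage 20.2% were called higher and 13.2% lower. All 44 passed the filter on low reads, 6 of them (Bub1, Cdc25c, Cdk1, Kif2c, Kif4 and Ttk) only through the lin28Tg libraries, and of the 38 that passed without those libraries 36 were called higher and 2 lower. The differences of the 42 ran from 0.75 to 3.95 with a median of 2.65, a 1.68- to 15.4-fold difference with a median of 6.28-fold. The median over all 44 was 2.41 and that over all genes tested -0.01. No member's lin28Tg libraries overlapped its WT libraries, which held for 49.0% of all genes tested.

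Among the kinases, cyclins and the phosphatase that start mitosis, all 7 were higher in naive lin28Tg cells. Ccna2, cyclin A2 (chromosome 3, 36564865 to 36572150), stood at 1.06, 1.00 and 1.13 FPKM in the WT libraries, 0.636, 0.789 and 0.533 in let-7Tg and 14.3, 20.1 and 26.5 in lin28Tg libraries. Every lin28Tg library was far above the other 6, and the difference from WT was 3.67 ± 0.20 (SE, n = 3 against 3, limma adjusted p 1.07e-05). Cdk1, the kinase that cyclins A and B activate, differed by 3.65 ± 0.26, Ccnb1 by 3.00 ± 0.27 and Plk1, a Polo kinase of centrosomes and kinetochores, by 2.25 ± 0.21. Cdc25c, the phosphatase that activates Cdk1, was seen in 2, 2 and 1 reads in WT and 30, 58 and 48 reads in lin28Tg libraries. Its lin28Tg to WT ratio of summed reads was 20.9 (exact 95% binomial interval 8.73 to 65.3, for counting error alone). Cdk1 and Cdc25c passed the filter only through the lin28Tg libraries, so a high lin28Tg level was a condition of their test. Aurka, the Aurora kinase of spindle poles, had the smallest change of this group that rests on more than a few reads, 1.81 ± 0.17.

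The 3 members of the chromosomal passenger complex, which corrects wrong attachments and guides cytokinesis, were all higher. Aurkb, its kinase, stood at 1.33, 1.41 and 1.49 FPKM in WT and 16, 22.0 and 31.3 in lin28Tg libraries, a difference of 3.56 ± 0.26. Birc5 (survivin) differed by 3.27 ± 0.24. Incenp, the scaffold of the complex, was already at 8.76 to 10.1 FPKM in WT cells and differed by 1.15 ± 0.11. All 4 checkpoint members were higher, from Mad2l1 (1.19 ± 0.16, with 6.84 to 7.76 FPKM in WT) to Bub1b, the BubR1 pseudokinase, which went from 1.25, 2.84 and 1.23 FPKM in WT to 17.7, 26.6 and 32.5 in lin28Tg libraries (3.53 ± 0.29). Bub1 and Ttk, also among the 4, passed the filter only through the lin28Tg libraries, so a high lin28Tg level was a condition of their test.

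In the group that runs the separation of sister chromatids Ube2c, an E2 enzyme of the anaphase-promoting complex, differed by 3.58 ± 0.27 and Espl1, separase, by 2.72 ± 0.21. Cdc20, the activator of the complex, stood at 8.56, 5.57 and 6.25 FPKM in WT and 18.8, 26.3 and 33.8 in lin28Tg libraries (1.84 ± 0.20). All 5 centromere and kinetochore members were higher, from Cenpa, the histone H3 variant of centromeres (12.7, 15.8 and 16.1 against 22.4, 28.1 and 36.6 FPKM, 0.90 ± 0.16), to Cenpf (2.93 ± 0.26).

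All 5 kinesins were higher as well. Kif2c, which depolymerises microtubules at centromeres, stood at 0.979, 0.182 and 0.243 FPKM in WT and 7.05, 11.3 and 14.4 in lin28Tg libraries (3.59 ± 0.31). It passed the filter only through the lin28Tg libraries, as did Kif4. Kif11, the bipolar motor that pushes spindle poles apart, differed by 3.21 ± 0.21. Kif23, a kinesin of the midbody with 6.67 to 9.20 FPKM in WT, had the smallest difference of the 42, 0.75 ± 0.16. The 3 cytokinesis members were also higher, led in level by Racgap1, the partner of Kif23 at the central spindle (41.6, 35.8 and 38.6 against 79.8, 72.7 and 104 FPKM, 1.09 ± 0.14). Foxm1, a transcription factor of G2 genes, stood at 2.83, 3.8 and 3.89 FPKM in WT and 13.3, 15.8 and 24.7 in lin28Tg libraries (2.14 ± 0.21), and Mybl2 (B-Myb) differed by 1.74 ± 0.20.

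Stmn1, stathmin, which binds free tubulin and destabilises microtubules (chromosome 4, 134468320 to 134473843), had the smallest adjusted p of the members in this comparison. Its level was 18.2, 16.9 and 17.8 FPKM in WT, 15.7, 21.6 and 18.4 in let-7Tg and 134, 169 and 214 in lin28Tg libraries. The WT and let-7Tg libraries overlapped, and the lin28Tg libraries lay 3.20 ± 0.16 above WT (adjusted p 6.89e-06). Tpx2, Nusap1 and Prc1, which bundle or nucleate spindle microtubules, differed by 3.46 ± 0.27, 3.39 ± 0.24 and 1.80 ± 0.18. Top2a, the topoisomerase that untangles sister chromatids, had the largest difference of all members, from 7.82, 6.05 and 5.13 to 81.2, 102 and 141 FPKM (3.95 ± 0.22). Mki67, the surface coat of mitotic chromosomes and a common marker of cycling cells, differed by 3.67 ± 0.22.

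Smc4 and Pttg1 went the other way in naive lin28Tg cells. Smc4, the ATPase that both condensins share (chromosome 3, 69004738 to 69034623), stood at 167, 200 and 175 FPKM in WT, 243, 273 and 256 in let-7Tg and 92.0, 86.9 and 110 in lin28Tg libraries. The 3 genotypes did not overlap, and lin28Tg was lower than WT by -0.93 ± 0.10 (adjusted p 0.000200). Smc2, its partner in the same complexes, was higher in lin28Tg cells (9.72, 9.06 and 9.11 in WT against 20.1, 21.8 and 26.3 FPKM, 1.21 ± 0.10), as were the condensin I subunits Ncapd2 (1.32 ± 0.11), Ncapg (2.97 ± 0.21) and Ncaph (2.58 ± 0.20). Pttg1, securin, which holds separase inactive until anaphase (chromosome 11, 43420250 to 43426251), stood at 39.1, 40.7 and 33.8 FPKM in WT, 49.8, 59.3 and 47.7 in let-7Tg and 27.9, 27.3 and 28.9 in lin28Tg libraries (-0.45 ± 0.10, adjusted p 0.00801). Both were among the 4 members of highest FPKM in naive WT cells. The call of Pttg1 was lost with replicate 1 as the single lin28Tg library (adjusted p 0.141).

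Within the naive lin28Tg group the members moved together between libraries. The library of replicate 3 was the highest of its group in 44 of the 44 members and that of replicate 1 the lowest in 40. Markers of other cells were also higher in naive lin28Tg libraries, with 9 of 9 tested myeloid, 3 of 4 B cell, 4 of 6 NK cell, 5 of 6 erythroid and 5 of 7 stromal and endothelial markers called higher against WT. One stromal and endothelial marker was lower, and of 5 CD4 T cell markers 2 were higher, among them Cd4 (9.71 to 56.4 against 3.13 to 9.62 FPKM), and 2 lower. The 10 listed myeloid markers, none of which was at 0, summed to 187 to 276 FPKM in WT, 172 to 289 in let-7Tg and 579, 1636 and 920 in lin28Tg replicates 1, 2 and 3, and the 8 erythroid markers to 153 to 292, 2.38 to 39.1 and 1046, 1996 and 495. The 8 B cell markers summed to 19.2 to 21.9, 15.2 to 21.4 and 32.0 to 43.1 FPKM, with Pax5 at 0 in all WT and let-7Tg libraries. The summed level of 9 markers of CD8 T cells was 6335 to 7235 FPKM in WT and 5131 to 5644 in lin28Tg libraries, 3 of the 9 were called lower and none higher, with Trac at 1402 to 1704 and 763 to 793 and Cd8a at 509 to 525 and 452 to 518 FPKM. The part of other cells in the members' difference was not tested. The order of the lin28Tg libraries was 2, 3, 1 by myeloid markers and 3, 2, 1 by the members, with replicate 1 last in both. With replicate 1 as the single lin28Tg library, an alternative chosen after seeing the data in which that library is assumed to vary like the other groups, 36 members were called higher and 1 lower against WT of the 40 then tested, with a median of 2.11.

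**Figure D2:**
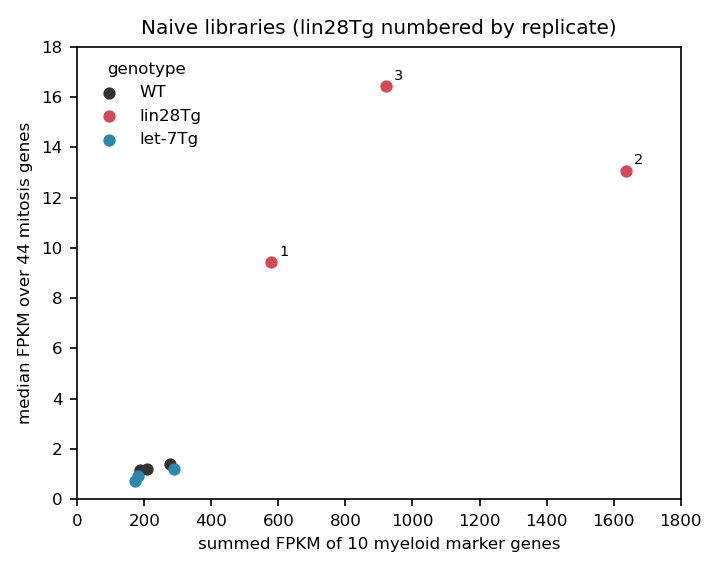
Summed FPKM of myeloid markers (x axis, linear) against the median FPKM of the 44 members (y axis, linear) in the 9 naive libraries, each library a point. The lin28Tg points (579, 1636 and 920 FPKM of myeloid markers for replicates 1, 2 and 3) lie above the other 6 on both axes. Within lin28Tg replicate 1 is the lowest on both axes, replicate 2 has the most myeloid signal and replicate 3 the highest members. The part of other cells was not tested.

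No member was called between naive let-7Tg and WT cells. Of all genes tested 0.935% were called, and 7 members had an unadjusted p under 0.05 in limma, as did 14.8% of all genes. The median over the members was -0.16. Smc4 came closest (0.47 ± 0.10, adjusted p 0.059), followed by Pttg1 (0.41 ± 0.10, adjusted p 0.0925), and both lay above their WT libraries in all 3 let-7Tg libraries. Ccna2 (-0.47 ± 0.20), Ccnb2 (-0.62 ± 0.25) and Top2a (-0.60 ± 0.22) lay below WT in all 3 libraries without passing the test. The lowest of these levels rest on few reads, and 23 members averaged under 1 FPKM in naive let-7Tg libraries.

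Against let-7Tg, naive lin28Tg cells had 42 members higher, where 24.2% of all genes tested were higher, and 2 lower, where 19.4% were lower. The comparison shares its lin28Tg libraries with the one against WT. The 6 members that passed the filter only through those libraries are among the 42. Ccna2 (4.15 ± 0.20) and Stmn1 (3.18 ± 0.16) had the smallest adjusted p, 3.92e-06 each, and Top2a, with 4.64, 4.74 and 3.06 FPKM in let-7Tg libraries, had the same adjusted p and the largest difference (4.55 ± 0.22). Smc4 (-1.40 ± 0.10) and Pttg1 (-0.86 ± 0.10) were again the members that were lower.

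After 12 h of stimulation, before the usual time of the initial division, 40 members were higher in lin28Tg than in WT cells and none was lower, where 6.49% of 12229 genes tested were called higher. Cdc25c and Cenpf passed the filter only through the lin28Tg libraries, and of the other 42 members 38 were called. The 40 differences ran from 0.81 to 3.12 with a median of 1.93, a median of 3.81-fold. Kif2c (chromosome 4, 117159639 to 117182639) stood at 0.729, 0.971 and 1.53 FPKM in WT, 0.108, 0.169 and 0.0532 in let-7Tg and 7.23, 9.92 and 8.59 in lin28Tg libraries. The 3 genotypes did not overlap, and lin28Tg lay 2.55 ± 0.20 above WT (adjusted p 0.000361). Plk1 stood at 0.805, 1.00 and 1.30 FPKM in WT, 0.487, 0.536 and 0.704 in let-7Tg and 5.53, 8.39 and 7.04 in lin28Tg libraries (2.28 ± 0.19, adjusted p 0.000361). Ccna2 had the largest difference, 3.12 ± 0.26, from 1.66, 1.73 and 2.71 to 14.7, 25.8 and 24.9 FPKM.

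By role, all 7 kinases, cyclins and the phosphatase, all 3 passenger proteins, all 4 checkpoint genes, all 5 kinesins, all 4 spindle proteins, all 3 cytokinesis genes and both transcription factors were higher in 12 h lin28Tg than in WT cells. Of these, Cdc25c passed the filter only through the lin28Tg libraries. The members that were not called were Smc2 (0.79 ± 0.23, adjusted p 0.0618), Cenpa (0.28 ± 0.17), Smc4 (0.25 ± 0.13) and Pttg1 (0.16 ± 0.11). Smc4 stood at 88.8, 71.6 and 88.0 FPKM in WT and 86.2, 106 and 104 in lin28Tg libraries at 12 h, where the genotypes overlapped. Stmn1 stood at 39.4, 39.2 and 58.3 FPKM in WT, 23.2, 21.3 and 33.7 in let-7Tg and 99.4, 139 and 123 in lin28Tg libraries, and lin28Tg was higher than WT by 1.40 ± 0.22 (adjusted p 0.00549). At this stage 3 of 8 tested myeloid markers were higher in lin28Tg than in WT cells, and their sums overlapped (85.6 to 163 FPKM in WT, 143 to 222 in lin28Tg). The B cell sums did not overlap (1.48 to 1.92 in WT, 3.01 to 3.54 in lin28Tg), with 1 of 2 tested markers higher. Of 6 tested erythroid markers 3 were lower in let-7Tg than in WT cells and 4 higher in lin28Tg than in let-7Tg cells, with sums of 26.5 to 104 FPKM in WT, 1.51 to 4.66 in let-7Tg and 83.6 to 694 in lin28Tg libraries, and 3 of 9 CD8 T cell markers were lower and 1 higher in lin28Tg than in WT cells. Their part in the members' differences was not tested. The library of replicate 1 was the lowest of the 12 h lin28Tg group in 43 of 44 members.

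**Figure D3:**
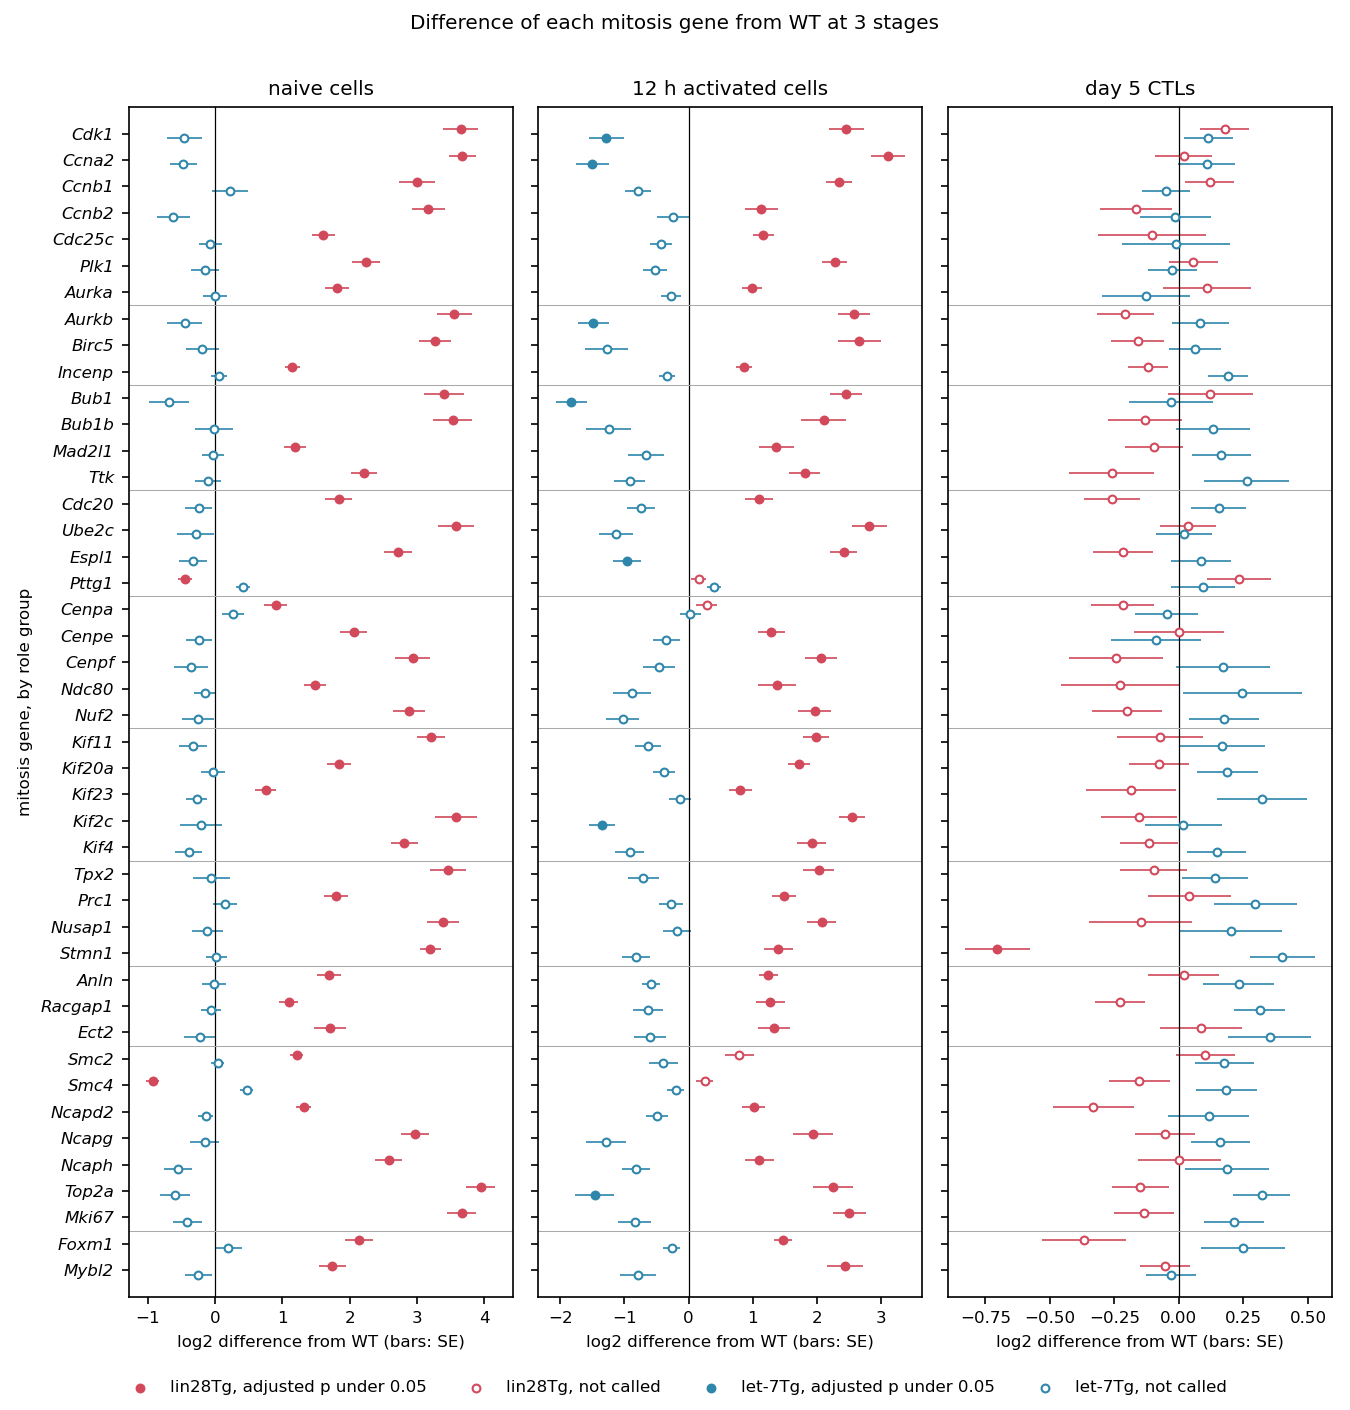
Log2 difference of each of the 44 members from WT, for lin28Tg and for let-7Tg, in naive cells, 12 h cells and day 5 CTLs (points with bars of 1 SE, members ordered by role). Nearly all members lie above 0 for lin28Tg against WT in naive cells (0.75 to 3.95 for the 42 called higher) and at 12 h (0.81 to 3.12 for the 40 called). In naive cells Smc4 and Pttg1 lie below 0 for lin28Tg and above 0 for let-7Tg (Smc4 at 0.47). The day 5 points of lin28Tg lie near 0 apart from Stmn1 at -0.70, and Stmn1 is the highest day 5 point of let-7Tg, at 0.40.

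At 12 h 7 members were lower in let-7Tg than in WT cells (Bub1, Kif2c, Aurkb, Ccna2, Top2a, Cdk1 and Espl1), where 1.93% of all genes tested were lower, and 32 members had an unadjusted p under 0.05, as did 21.7% of all genes in either direction. The median over the 44 members was -0.69, and 42 of them had a negative difference. Bub1, the checkpoint kinase of kinetochores (chromosome 2, 127801122 to 127831865), stood at 1.60, 1.88 and 2.21 FPKM in WT, 0.0509, 0.159 and 0.351 in let-7Tg and 9.23, 17.5 and 12.4 in lin28Tg libraries. No 2 genotypes overlapped, and let-7Tg was lower than WT by -1.83 ± 0.24 (adjusted p 0.0143). On recovered reads (voom) the Bub1 difference was -3.48 (adjusted p 0.0525). Kif2c was lower by -1.35 ± 0.20 (adjusted p 0.0194), with 2, 3 and 1 reads in the let-7Tg libraries against 12, 19 and 28 in WT, a WT to let-7Tg ratio of summed reads of 9.98 (exact 95% binomial interval 4.32 to 28.3, for counting error alone). The calls depended on the fit: without WT replicate 3, in which 33 members were the highest of the WT group, no member was called, and counts under other settings ran from 1 to 15. Top2a stood at 24, 15.9 and 30 FPKM in WT and 6.95, 6.46 and 11.3 in let-7Tg libraries (-1.46 ± 0.31, adjusted p 0.0414), the best covered of the 7.

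Between lin28Tg and let-7Tg at 12 h, 42 members were higher in lin28Tg cells, where 17.0% of all genes tested were. Among the 42 are Cdc25c and Cenpf, which passed the filter only through the lin28Tg libraries. Kif2c (3.90 ± 0.20) and Bub1 (4.29 ± 0.24) had the smallest adjusted p, 1.43e-05 and 1.64e-05. With the few Kif2c reads of let-7Tg cells that fold depends on the constant added, and the ratio of summed reads was 79.1 (exact 95% binomial interval 36.1 to 217). Smc4 was among the 42 (0.45 ± 0.13, adjusted p 0.0310), whereas it was lower in naive lin28Tg cells. Pttg1 and Cenpa were not called (-0.24 ± 0.11 and 0.25 ± 0.17).

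Few members were called between genotypes in day 5 CTLs. Stmn1 was the single one of the 44 called between lin28Tg and WT, a count near the 2.35% of 13013 genes tested that were called lower. In limma 3 members had an unadjusted p under 0.05, as did 19.7% of all genes. The level of Stmn1 was 632, 588 and 564 FPKM in WT, 782, 879 and 773 in let-7Tg and 432, 286 and 357 in lin28Tg libraries. The genotypes did not overlap, with lin28Tg lowest and let-7Tg highest, and lin28Tg was lower than WT by -0.70 ± 0.12 (adjusted p 0.0192). The call was lost without WT replicate 1 (adjusted p 0.0747), without lin28Tg replicate 3 (0.0729) and in a fit of these 2 groups alone (0.0550), with a negative difference each time. The other 43 members had differences of -0.37 to 0.23, and their lin28Tg and WT libraries overlapped, while 24.2% of all genes tested had groups that did not. None of the 44 was called between let-7Tg and WT, where 0.991% of all genes tested were, and 4 had an unadjusted p under 0.05, as did 12.6% of all genes. Stmn1 was again the largest of these differences (0.40 ± 0.12, adjusted p 0.192).

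Compared with let-7Tg CTLs, lin28Tg CTLs had 7 of the 44 members lower, a count near the 11.3% of all genes tested that were lower. The 7 were Stmn1 (-1.10 ± 0.12, adjusted p 0.000660), Racgap1, Top2a, Incenp, Cdc20, Foxm1 and Ttk. Racgap1 (chromosome 15, 99620496 to 99651656) stood at 214, 234 and 218 FPKM in WT, 293, 293 and 270 in let-7Tg and 216, 158 and 181 in lin28Tg libraries. The let-7Tg libraries lay above the other 6, and the difference from lin28Tg was -0.54 ± 0.10 (adjusted p 0.00499). Top2a stood at 659, 837 and 705 FPKM in WT, 938, 1037 and 861 in let-7Tg and 722, 625 and 576 in lin28Tg libraries (-0.47 ± 0.11). Libraries of the same number went together on day 5, and with the replicate number as a block 15 members were called, 14 lower and 1 higher. Without lin28Tg replicate 1, the highest of its group in 43 members, 17 were called, and without lin28Tg replicate 3 or let-7Tg replicate 2 there were 2.

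**Figure D4:**
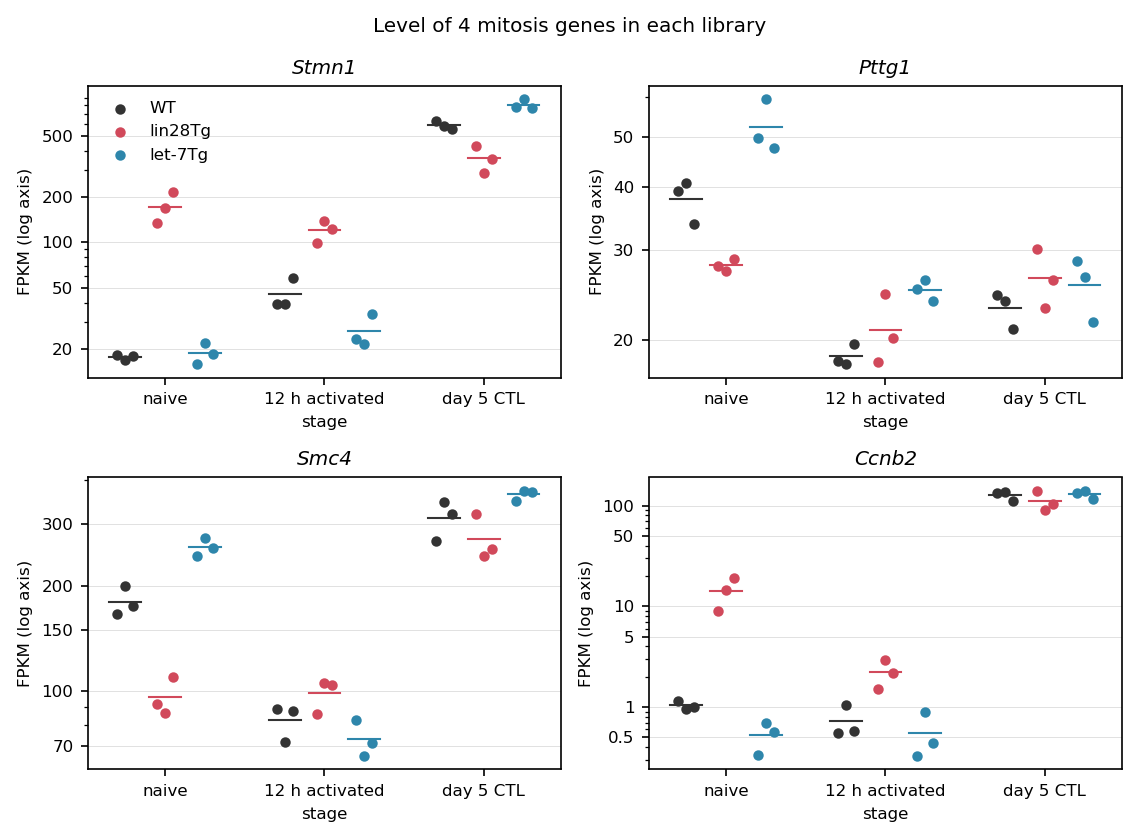
FPKM of Stmn1, Pttg1, Smc4 and Ccnb2 in each library (points, log axis) by genotype and stage, with 3 libraries per group. Stmn1 of lin28Tg cells lies above WT in naive (134 to 214 against 16.9 to 18.2) and below it on day 5 (286 to 432 against 564 to 632), and Pttg1 and Smc4 of naive lin28Tg cells lie below WT.

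Stmn1 was thus higher in lin28Tg than in WT cells at the first stages and lower on day 5. This turn was known from these data when the genes were chosen, so its values are a description and the p-values of Stmn1 are no independent support for it. In a model of all 27 libraries its lin28Tg to WT difference changed by -1.82 ± 0.27 from naive cells to 12 h and by -2.10 ± 0.27 from 12 h to day 5. The let-7Tg to WT difference of Stmn1 moved by 1.24 ± 0.27 from 12 h to day 5.

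For the members as a whole, the lin28Tg to WT difference was smaller on day 5 than at 12 h in 40 members, where 4.64% of 14449 genes tested were called in that direction, and larger in none. Ccna2 (-3.11 ± 0.30), Espl1 (-2.66 ± 0.28) and Plk1 (-2.25 ± 0.25) had the smallest adjusted p, and after Ccna2 the largest decreases were those of Birc5 (-2.85) and Ube2c (-2.81). Between naive and 12 h cells it was smaller in 11 members, where 6.06% of all genes were, and larger in 2 (Smc4 and Pttg1), where 2.08% were. These 13 calls became 4 on recovered reads, 20 without naive lin28Tg replicate 1, 7 without replicate 2, 6 without replicate 3, and 8 without naive WT replicate 2 or 3 or 12 h lin28Tg replicate 1. Ccnb2, cyclin B2, had the largest such decrease (-1.996 ± 0.33, adjusted p 0.000908, which was 0.127 on recovered reads, with 12, 27 and 14 reads in 12 h WT libraries), and Smc4 turned from lower in naive lin28Tg cells to no called difference (1.16 ± 0.18, adjusted p 0.000749). For the let-7Tg to WT difference no member was called from naive to 12 h cells, where 0.0761% of all genes were, and 22 members had an unadjusted p under 0.05 in limma, as did 7.72% of all genes. Smc4 (-0.68 ± 0.18, adjusted p 0.206) and Ccna2 (-1.09 ± 0.30, adjusted p 0.234) had the smallest p. From 12 h to day 5 it was larger in 12 members, where 0.941% were, and in 2 without 12 h WT replicate 3, 6 without 12 h let-7Tg replicate 2, 7 without day 5 WT replicate 3 and 4 without replicate 1 or 2 of day 5 WT or let-7Tg cells. The smallest adjusted p were those of Ccna2 (1.66 ± 0.30), Bub1 (1.86 ± 0.37) and Top2a (1.81 ± 0.36). Top2a lost its call without that library (adjusted p 0.0602), and Ccna2 (2.51, adjusted p 0.0935) and Bub1 (3.47, adjusted p 0.0782) missed the threshold on recovered reads. The lin28Tg to let-7Tg difference was larger at 12 h than in naive cells in 3 of 44 members, where 4.85% of all genes were. It was smaller in 4, where 8.79% were, and both counts are near these shares. On day 5 it was smaller than at 12 h in 42 members, where 12.4% were.

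The members also differed in how they answered stimulation within a genotype. In WT cells 28 members were higher at 12 h than in naive cells and 4 lower, where 34.7% of 14449 genes were called higher and 36.2% lower. The members that rose included Cdk1 (2.55 ± 0.24), Ncaph (2.52 ± 0.21), Bub1b (2.04 ± 0.31) and Top2a (1.98 ± 0.26), and those that fell were Kif23 (-1.36 ± 0.18), Racgap1 (-0.92 ± 0.19), Smc4 (-0.91 ± 0.13) and Pttg1 (-0.79 ± 0.12). Plk1 (-0.28 ± 0.18) and Ccnb2 (-0.22 ± 0.23) were not called, whereas Ccnb1, Cdc25c, Aurka, Cdc20 and Ube2c were among the 28 that rose. In lin28Tg cells 13 of 44 members rose and 7 fell, no larger shares than the 34.2% and 39.4% of all genes. Ccnb2 fell most (-2.22 ± 0.23), from 8.93, 14.4 and 19.3 FPKM in naive to 1.52, 2.91 and 2.19 in 12 h lin28Tg libraries, which did not overlap. Nusap1 (-1.65 ± 0.23), Mki67 (-1.11 ± 0.22) and Cenpf (-0.70 ± 0.25) fell with it, while Mybl2 (1.73 ± 0.23) and Cdk1 (1.40 ± 0.24) rose. In let-7Tg cells 13 of 44 members rose and 7 fell, no larger shares than the 34.2% and 35.1% of all genes. Ncaph (2.23 ± 0.21) and Cdk1 (1.69 ± 0.24) led upwards, and Smc4 (-1.59 ± 0.13) and Racgap1 (-1.50 ± 0.19) downwards. Without scaling between libraries the median of all genes moves by -0.14 to -0.16 in these 3 contrasts, and the members called are then 26 higher and 5 lower in WT, 8 and 14 in lin28Tg and 8 and 12 in let-7Tg cells. Stage goes with stimulus, day of harvest and culture, which cannot be told apart.

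From 12 h to day 5 nearly every member rose in every genotype. In WT cells 43 members were higher in CTLs, where 34.2% of all genes were, in lin28Tg cells 44, where 32.8% were, and in let-7Tg cells 43, where 34.3% were. The median difference over the 44 members was 4.43 in WT, 2.55 in lin28Tg and 5.38 in let-7Tg cells. Mki67 rose by 6.68 ± 0.22 in WT, 4.01 ± 0.22 in lin28Tg and 7.77 ± 0.22 in let-7Tg cells. Pttg1 was the exception, at 17.9 to 19.7 FPKM at 12 h and 21.0 to 24.5 on day 5 in WT cells (0.19 ± 0.12), and it was not called in let-7Tg cells (-0.10 ± 0.12).

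Other genes of cell division were counted in lists that overlap no member. Of 109 other mitosis genes, 76 were higher in naive lin28Tg than in WT cells, where 20.2% of all genes tested were. Only 1 was lower, where 13.2% were, and the median over the list was 1.19. At 12 h 63 of 107 were higher, where 6.49% of all genes were, and none lower (median of the list 0.79). Hmmr, a spindle protein, led these in naive cells (0.206 ± 0.0848 FPKM in WT, SD, n = 3, against 7.08 ± 2.02, a difference of 3.39), with Wee1, the kinase that holds Cdk1 back (2.36), and Kif18b and Spag5 led at 12 h (2.16 and 2.45). On day 5 none of the 109 was called between lin28Tg and WT, where 2.35% of all genes tested were called lower. Between let-7Tg and WT the calls were few: Cks2 was lower in naive cells, Psrc1 was higher and 8 genes were lower at 12 h, and Tubb4b, a beta tubulin, was higher on day 5 (271 ± 9.96 against 386 ± 25.5 FPKM). Of all genes tested between let-7Tg and WT, 0.935% were called in naive cells, 1.93% were lower at 12 h and 0.991% were called on day 5. Between lin28Tg and let-7Tg 78 of the list were higher and 5 lower in naive cells, where 24.2% and 19.4% of all genes were. At 12 h 77 were higher, where 17.0% were, and 2 lower. On day 5 none was higher and 15 were lower, led by Zw10 and Tubb4b, a count near the 11.3% of all genes that were lower.

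Of 49 DNA replication genes, 42 were higher in naive lin28Tg than in WT cells (median 1.01), 13 at 12 h (median 0.58) and 0 on day 5, and none was lower. Of all genes tested 20.2% were higher in naive cells and 6.49% at 12 h. Rrm2, a subunit of ribonucleotide reductase, went from 3.33 ± 0.798 to 53.8 ± 13.0 FPKM in naive cells (SD, n = 3) and was also higher at 12 h (2.76 ± 0.29). Mcm5, a subunit of the replicative helicase, differed by 1.51 ± 0.07 in naive cells and Mcm10, a replication factor, by 2.30 ± 0.33 at 12 h. Uhrf1 in naive cells and Rrm2 at 12 h were lower in let-7Tg than in WT cells, and no replication gene was called between these genotypes on day 5. In WT cells 46 of the 49 rose from naive to 12 h (median 1.76) and 35 from 12 h to day 5 (median 0.51), whereas the median over the 44 members was 4.43 in the later step. Of all genes 34.7% and 34.2% rose in these steps. Between lin28Tg and let-7Tg 45 of the 49 were higher in naive cells and 46 at 12 h, where 24.2% and 17.0% of all genes were. On day 5 3 were higher and 3 lower, where 11.3% of all genes were lower. Of 19 tested genes that restrain the cell cycle, 5 were higher and 6 lower in naive lin28Tg than in WT cells, led upwards by the INK4 inhibitors Cdkn2c (1.96 ± 0.202 against 10.6 ± 2.80 FPKM) and Cdkn2b, with 3 higher and none lower of 18 at 12 h and 2 higher and 1 lower on day 5. In this comparison 20.2% of all genes tested were higher and 13.2% lower in naive cells. At 12 h 6.49% were higher, and on day 5 2.35% were lower. Cdkn2d was lower at 12 h in let-7Tg than in WT cells and no other gene of this list was called between them. Between lin28Tg and let-7Tg 6 of the list were higher and 4 lower in naive cells, 6 and 0 at 12 h, and 4 and 4 on day 5. The shares of all genes were 24.2% and 19.4% in naive cells, 17.0% higher at 12 h and 11.3% lower on day 5.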

How the data were processed

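RNA-seq libraries of P14+ CD8 T cells (3 genotypes, 3 stages, 3 libraries each) were compared through 1 deposited table per stage. The authors aligned paired reads with TopHat2 2.0.9 and Bowtie2 2.0.6 and counted them per gene with HTSeq 0.6.1, and deposited FPKM for every gene and library, which are reads over gene length and over the library's total, with no further scaling. The submitters' processing notes name the builds GRCm38 and mm10, and the annotation release is not given in the sources used here. The tables also hold the authors' own comparisons (group means, fold changes and p-values), which were not used.

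Libraries were scaled by a trimmed mean of log ratios to a reference (30% of ratios and 5% of levels trimmed). Genes with the equivalent of 10 reads in at least 3 libraries and 15 reads in all were fitted with limma 3.58.1 (R 4.3.3) on log2 of scaled FPKM + 0.5, with an intensity trend, 1 model per stage and 1 model of all 27 libraries for stages and interactions, two-sided, Benjamini-Hochberg over all genes tested, threshold 0.05. The fit was tested on simulated data. Whole reads could be recovered for 462838 of 462839 values above 0 (within 0.01 reads of a whole number), and voom on them was an alternative. The study calls the libraries of a group biological replicates from 1 RNA-seq experiment. Separate animals are not named, and p-values measure the spread between these libraries. Replicates of a group differed by more than counting noise (mean chi-square per gene 4.40 to 58.1 over 27 pairs).

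The 44 members and all lists were chosen with earlier results of these data known. Members described library by library were Stmn1 and the 2 called members of smallest adjusted p per comparison and direction. The member of each role with the highest mean day 5 WT FPKM was added, and for interactions the 3 of smallest adjusted p. Groups of libraries came from the labels. Deviations from group means of libraries with the same number correlated at 0.245 to 0.715 (median 0.446) in all 9 pairs on day 5, so the numbers were taken to pair day 5 libraries. In naive and 12 h cells the lowest same-number pairs, both with lin28Tg, stood at -0.257 and -0.258, and no pairing was assumed. WT and let-7Tg libraries of the same number correlated at 0.240, 0.549 and 0.434 at 12 h, and those of different numbers at -0.446 to 0.157. In naive cells these values were 0.475, 0.216 and 0.0617 against -0.403 to 0.291. The main fits used no block at any stage. Alternatives were other pseudocounts, filters and scalings, voom, no trend, fits of 2 groups, the replicate block and leaving out each library. Motifs and UTR matches were counted in RefSeq promoters and GENCODE M21 transcripts with Python 3.11.15. Gene positions are from GENCODE M21 and serve to place genes.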

Additional observations from a re-analysis of the deposited data

Results flagged for a closer look

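The results below were singled out because a genotype difference itself differed between stages in the model of all 27 libraries (limma, adjusted p under 0.05). All values are differences of log2 differences, later stage minus earlier stage, in cells with 3 libraries per group.

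Between naive and 12 h cells the lin28Tg to WT difference changed in 13 members, 11 downwards (6.06% of all genes) and 2 upwards (2.08%). It dropped for Stmn1 (-1.82) and Ccnb2 (-1.996) and rose for Smc4 (1.16), which was lower in naive lin28Tg cells and not called at 12 h. The lin28Tg to let-7Tg difference changed in 7 of the 44 members over the same interval, 3 upwards (4.85% of all genes) and 4 downwards (8.79%). These counts are near the shares of all genes. The values were 1.84 for Smc4, -2.34 for Ccnb2, -1.18 for Ncaph and -0.96 for Stmn1. On recovered reads (voom) Ncaph lost its call (-1.47, adjusted p 0.0645). The lin28Tg to WT and lin28Tg to let-7Tg comparisons share the lin28Tg libraries.

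Between 12 h and day 5 the lin28Tg to WT difference changed in 40 members, all of them downwards (4.64% of all genes), with -3.11 for Ccna2, -2.66 for Espl1, -2.25 for Plk1 and -2.10 for Stmn1. The turn of Stmn1 was known when the genes were chosen, and its values are a description. The let-7Tg to WT difference changed in 12 members, all upwards (0.941% of all genes), with 1.66 for Ccna2, 1.86 for Bub1, 1.81 for Top2a and 1.24 for Stmn1. The lin28Tg to let-7Tg difference changed in 42 members, all downwards (12.4% of all genes), with -4.77 for Ccna2, -3.76 for Espl1, -4.40 for Aurkb and -3.34 for Stmn1.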

How the results depend on the processing

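Of 179 alternative values of the 21 counts of called members, other than those that leave out a library, 165 stayed within 1.5 times the reported count and 14 did not. The 7 members called lower in let-7Tg than in WT cells at 12 h became 15 with a pseudocount of 0.1, 1 without the filter, 2 with voom and 1 in a fit of these 2 groups, and 0 to 5 without 1 library (0 without WT replicate 3). The 7 of lin28Tg against let-7Tg on day 5 became 4 without the filter, 11 without scaling (35.0% of all calls higher, against 48.1% with scaling) and 2 to 17 without 1 library. The single call of lin28Tg against WT on day 5 became 0 in a fit of 2 groups and 0 to 3 without 1 library (0 without WT replicate 1 or lin28Tg replicate 3, 3 without lin28Tg replicate 1). The 12 changes of let-7Tg against WT from 12 h to day 5 became 6 with a pseudocount of 1, 4 without the filter, 7 without scaling, 3 with voom and 2 to 11 without 1 library (2 without WT 12 h replicate 3). With voom the 13 changes of lin28Tg against WT from naive to 12 h became 4 and the 7 of lin28Tg against let-7Tg became 3. The 13 ran from 6 (without naive lin28Tg replicate 3) to 20 (without replicate 1), and the 0 of let-7Tg against WT from 0 to 1. Without scaling the split of all calls of let-7Tg against WT was 51.0% higher in naive cells (33.1% with scaling) and 72.4% on day 5 (62.0%). The cause was not tested.

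With the replicate number as a block, the 7 members of lin28Tg against let-7Tg on day 5, where the numbers pair the libraries, became 15, and no other count moved by over 1.5 times. In naive and 12 h cells no pairing was assumed, though WT and let-7Tg libraries of the same number correlated at 0.240, 0.549 and 0.434 at 12 h. The block gave 10 in place of 7 members for let-7Tg against WT at 12 h. Alternatives of single differences were counted for the 32 called ones of smallest adjusted p per comparison or interaction. That choice favours stable calls, and most other differences printed above are not among them. Of their 563 alternative values, 548 kept direction and call, 15 kept direction and lost the call, and none turned. The fits on naive lin28Tg replicate 1 alone were added after seeing the data. Depth limits the naive and 12 h levels, where up to 23 members averaged under 1 FPKM in a group.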
